A study of Mus musculus with 6 samples.

Results

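Tbx2, Tbx3, Tbx4, Tbx5, Foxf1, Tcf21, Gata6, Meox2, Gli1 and Twist1 are transcription factor genes of the lung mesenchyme, and they were chosen by name from the 34745 genes in the table, all 10 of them being listed once. RNA was sequenced from lung mesenchymal stromal cells, or LMSCs, grown from mice of the strain MMTV-PyMT, whose transgene joins the mouse mammary tumour virus promoter to the polyoma middle T oncogene and gives mammary tumours that spread to the lung. The study asked how these cells change before and during metastasis, and the libraries used here were 2 of adenoma-stage cells (A-LMSC, mice of 6 to 7 weeks), 2 of pre-metastatic cells (PM-LMSC, 9 to 10 weeks) and 2 of metastatic-stage cells (M-LMSC, 13 to 14 weeks). Ages are those of the sample labels. For the 2 earlier stages the methods of the study give mice about a week older. All cells carried the transgene, were selected by adherence and as CD45-negative cells, were grown in DMEM with 10% fetal bovine serum, and were harvested at passage 3, so no library came from tumour-free mice or from uncultured lung. The methods of the study state 3 mice a stage, 2 of which are in the series used here. The labels do not name the animals, and the p-values measure only the spread between these libraries.

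In the embryo, Tbx4 and Tbx5, made in the mesoderm around the lung bud, switch on Fgf10, and Fgf10 from the mesenchyme drives the epithelium to bud and branch. Sonic hedgehog from that epithelium acts back on the mesenchyme through Smo and the GLI factors, with Foxf1 and Gli1 among its known targets, while Tcf21 marks lipofibroblasts and other fibroblasts of the adult lung. The comparison asked whether the genes stayed on in cells taken out of the lung and passaged 3 times, and whether they did so at each stage. Stromal cells of other organs were not analysed here, so the levels have no outside reference beyond the other genes of the same libraries.

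The promoters of 4 of the 10 genes matched the RefSeq table (build GRCm38.p6), and 3 of them are shown for the letters they share: Tbx4, Twist1 and Meox2 each hold the TATA box letters TATAAA on one strand or the other within the 250 bases before their annotated start. Capitals mark these letters, read in reverse complement where they lie on the minus strand (Tbx4 and Meox2), and in Tbx4 also the E-box CAGCTG, the kind of site that basic helix-loop-helix proteins such as TCF21 bind. The stretches run 5′ to 3′ on the plus strand, at chr11:85896515-85896764 for Tbx4, chr12:33957421-33957670 for Twist1 and chr12:37108290-37108539 for Meox2.
Tbx4: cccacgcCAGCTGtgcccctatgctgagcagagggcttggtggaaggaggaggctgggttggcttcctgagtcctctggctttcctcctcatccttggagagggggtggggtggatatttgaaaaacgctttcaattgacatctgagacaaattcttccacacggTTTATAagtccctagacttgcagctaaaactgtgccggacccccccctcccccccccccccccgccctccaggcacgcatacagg
Twist1: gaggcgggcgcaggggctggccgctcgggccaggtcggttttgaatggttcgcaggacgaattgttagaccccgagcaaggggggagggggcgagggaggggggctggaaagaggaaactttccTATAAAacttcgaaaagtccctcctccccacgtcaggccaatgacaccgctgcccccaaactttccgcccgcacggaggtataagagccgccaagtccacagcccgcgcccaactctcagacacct
Meox2: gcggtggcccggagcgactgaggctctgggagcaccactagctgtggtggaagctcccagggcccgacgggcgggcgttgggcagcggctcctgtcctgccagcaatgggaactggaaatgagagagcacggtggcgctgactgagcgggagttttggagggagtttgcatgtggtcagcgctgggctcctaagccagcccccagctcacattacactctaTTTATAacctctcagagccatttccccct
The TATAAA lay 79 bases before the start in Tbx4, 120 in Twist1 and 23 in Meox2. It was found in 12.4% of 32851 promoters of the same length. The E-box stood 237 bases before the start in Tbx4, and 13% of promoters held one. The RefSeq start of Tbx4 lies inside the longer gene model of GENCODE M21. Of 7 motifs searched on both strands, the T-box half-site letters GTGTGA, present in 12.3% of promoters, were found in none of these 3 windows or that of Tcf21. A GATA motif, AGATAA (9.99% of promoters), matched in that of Tcf21, 25 bases before its start. This match lies inside the longer gene model of GENCODE M21, so it is in annotated exon there.

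Of the 10 genes, 9 were above 0.1 FPKM (fragments per kilobase of exon, scaled to the size of the library) in all 6 libraries, 7 were at 1 FPKM or more in all 6, and Gli1 alone stayed below 0.1 in each. Over all 34680 names in the table, 37.7% reached 0.1 FPKM and 27.5% reached 1 FPKM in every library. The median of the 10 means was 4.46 FPKM, against 0.0298 FPKM over all names. FPKM is a value per length, so the levels can be set in order: Foxf1 (mean 18.3 FPKM), Twist1 (17.4) and Gata6 (17.3) came first, then Tbx2 (6.39), Tcf21 (4.54) and Tbx5 (4.38), then Tbx4 (1.84), Meox2 (1.14), Tbx3 (0.799) and Gli1 (0.0540). Neighbours in this order overlapped over the 6 libraries except at 3 steps. All 6 values of Gata6 lay above all 6 of Tbx2, those of Tbx5 above those of Tbx4, and those of Tbx3 above those of Gli1. The first 3 genes stood at the 92.7th to 93.0th percentile of all names, and Tbx3, the second lowest, at the 69.1st. The 10 genes summed to 63.2 FPKM in the lowest library (PM-LMSC replicate 2) and 88.4 FPKM in the highest (M-LMSC replicate 2).

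**Figure D1:**
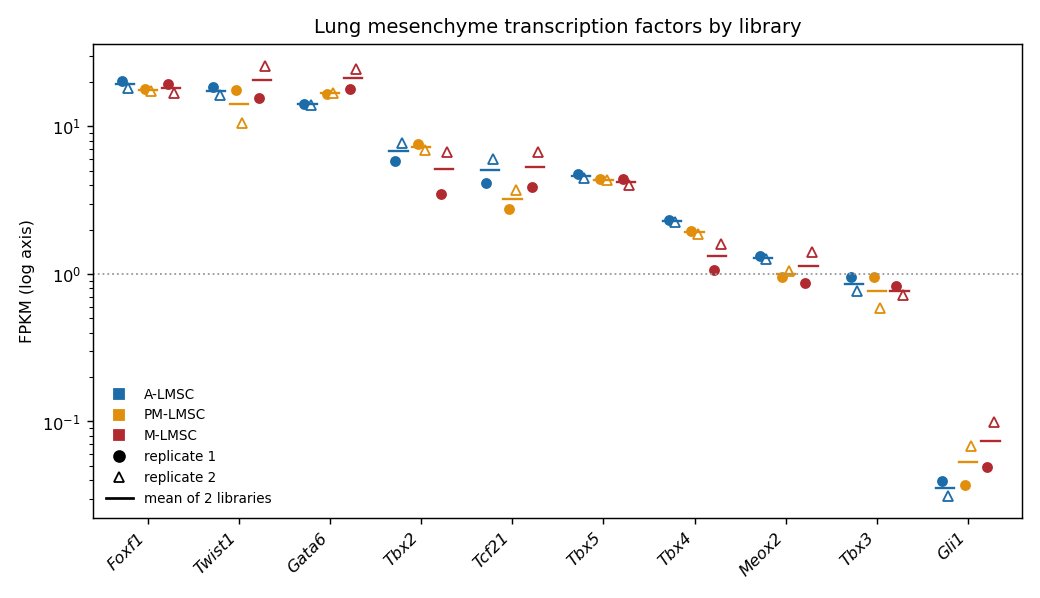
FPKM (log axis) of the 10 genes in each library, ordered by mean; circles are replicate 1, open triangles replicate 2, and bars the mean of the 2 libraries of a stage, with a dotted line at 1 FPKM. Foxf1 lies at 16.9 to 20.3 FPKM and Tbx3 at 0.586 to 0.956 FPKM, with 7 genes between them, and Gli1 lies below 0.1 FPKM in all 6 libraries.

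Foxf1, a forkhead factor required for the lung vasculature and the mesenchyme around it, had the highest mean of the set over the 6 libraries and was one of the most even, with Twist1 and Gata6 close to it. Gata6 came first without A-LMSC replicate 1 and Twist1 without PM-LMSC replicate 2, and in M-LMSC the means of Gata6 (21.1 FPKM) and Twist1 (20.7) were above that of Foxf1 (18.2). Its levels were 20.3 and 18.3 FPKM in A-LMSC, 17.8 and 17.3 in PM-LMSC, and 19.4 and 16.9 in M-LMSC. Both PM-LMSC libraries were below both A-LMSC libraries, while M-LMSC overlapped both other stages. The 3 stage means of log2(FPKM + 1) spanned 0.13, and in limma the difference of M-LMSC from A-LMSC was -0.08 (SE 0.12, 95% interval -0.37 to 0.20, adjusted p = 0.756). Foxf1 lies at chr8:121084386-121088144 in GRCm38, plus strand, with 2 exons. A miRNA gene on the other strand, Gm27530, overlaps 98 of its exonic bases. Its closest relative Foxf2, also a factor of visceral mesenchyme, was at 9.96 to 13.5 FPKM, and Foxf1 exceeded it in each library, by 1.32- to 1.85-fold.

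Gata6, a zinc finger factor of the foregut, the heart and smooth muscle, was the 1 gene of the set that stepped up from stage to stage. It was at 14.1 and 14.1 FPKM in A-LMSC, 16.6 and 16.9 in PM-LMSC, and 17.9 and 24.4 in M-LMSC. The 3 stages did not overlap, as was the case in rising order for 2.66% of all 10279 genes tested. The difference of M-LMSC from A-LMSC was 0.54 on the log2(FPKM + 1) scale (SE 0.15, 95% interval 0.17 to 0.91) and did not pass the test across all genes (limma adjusted p = 0.209, and 0.0737 with the replicate number as a block). The labels give no pairing for that number, and the block was chosen from these same data. M-LMSC replicate 2 decided the size of the difference: without that library it was 0.32. Of its exonic bases, 93 are shared with 1010001N08Rik on the other strand, whose mean was 0.320 FPKM. Gata6 was the highest GATA gene, at 2.99 to 7.39 times Gata2 over the libraries and 4.79 to 10.8 times Gata4.

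Markers of mesothelium, the cell layer that covers the lung, were higher in every later library than in A-LMSC as a sum, as Gata6 was, while Tbx5 was lower in every later library and Foxf1 in both PM-LMSC libraries and 1 M-LMSC library. The 11 markers summed to 129 and 189 FPKM in A-LMSC, 314 and 440 in PM-LMSC, and 215 and 524 in M-LMSC. Each of the 11 had a mean above 0.1 FPKM, and Muc16 was the 1 marker listed at 0, in A-LMSC replicate 1. Wt1 was at 1.72 and 1.79 FPKM in A-LMSC and at 3.40 to 6.31 FPKM in the 4 later libraries, and Msln at 8.87 and 12.7 FPKM against 12.6 to 48.2. In both later stages against A-LMSC, 0 of the 10 markers tested rose and 1 (Krt19) fell at a limma adjusted p under 0.05 (0.126% of all genes called). With the replicate block 8 of these markers rose and 1 fell (2.05% of all genes called). Their median difference was 1.18, that of all genes tested 0.02, and that of Gata6 0.38. The part of mesothelial cells in the values of Gata6, Tbx5 and Foxf1 was not tested. In RNA of whole cultures, more cells of a type and more RNA per cell cannot be told apart.

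Twist1, a basic helix-loop-helix factor known for epithelial-mesenchymal transition and for fibroblasts of tumours, was high and uneven. Its levels were 18.4 and 16.3 FPKM in A-LMSC, 17.5 and 10.6 in PM-LMSC, and 15.5 and 25.8 in M-LMSC. The lowest and the highest library, PM-LMSC and M-LMSC replicate 2, belonged to different stages, and all 3 stages overlapped. The largest of its differences was 0.52 for M-LMSC against PM-LMSC (SE 0.29, 95% interval -0.17 to 1.22, limma adjusted p = 0.664). Within stages its SD on the log2 scale was 0.40, more than in 96.7% of genes tested. Its relative Twist2 was at 22.6 and 11.3 FPKM in A-LMSC, 12.0 and 13.0 in PM-LMSC, and 10.3 and 7.91 in M-LMSC. Which of the pair was higher varied by library: the ratio of Twist1 to Twist2 ran from 0.812 in PM-LMSC replicate 2 to 3.27 in M-LMSC replicate 2.

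The 4 T-box genes lie as 2 neighbouring pairs. Tbx2 (chr11:85832551-85841948) and Tbx4 (chr11:85886422-85916097) are 44.5 kb apart, and Tbx3 (chr5:119670669-119684724) and Tbx5 (chr5:119832668-119885219) 147.9 kb apart, all on the plus strand in GRCm38. In each pair 1 gene was the higher in every library. Tbx2 was 2.53 to 4.23 times Tbx4, and Tbx5, at 3.997 to 4.75 FPKM, lay above Tbx3, at 0.586 to 0.956 FPKM.

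Tbx5, whose loss in the embryo stops the lung bud from forming, was the steadiest gene of the set. It was at 4.75 and 4.45 FPKM in A-LMSC, 4.41 and 4.30 in PM-LMSC, and 4.40 and 3.997 in M-LMSC. Both A-LMSC libraries stood above the 4 later ones, by a small margin. The 3 stage means spanned 0.11 on the log2 scale, a range wider than in 16.1% of genes tested, and the difference of M-LMSC from A-LMSC was -0.11 (SE 0.11, 95% interval -0.38 to 0.17, limma adjusted p = 0.664).

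Tbx4, which marks lung mesenchyme and the hindlimb and sets tracheal cartilage together with Tbx5, stepped down from stage to stage. Its levels were 2.32 and 2.24 FPKM in A-LMSC, 1.94 and 1.88 in PM-LMSC, and 1.06 and 1.59 in M-LMSC. The stages did not overlap, as was the case in falling order for 3.6% of genes tested. The difference of M-LMSC from A-LMSC was -0.50 (SE 0.14, 95% interval -0.84 to -0.17). It did not pass the test across all genes, with a limma adjusted p of 0.194, or of 0.0814 with the replicate block. Without M-LMSC replicate 1 it was -0.34. At 1.06 FPKM that library held an estimated 60 fragments of Tbx4, the fewest of the 6 (the most were 164). The ratio of Tbx5 to Tbx4 was 2.05 and 1.99 in A-LMSC, 2.27 and 2.29 in PM-LMSC, and 4.13 and 2.51 in M-LMSC.

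Tbx2, a repressor that keeps lung mesenchyme dividing in the embryo, was at 5.86 and 7.74 FPKM in A-LMSC, 7.61 and 6.91 in PM-LMSC, and 3.48 and 6.73 in M-LMSC. M-LMSC replicate 1 was the lowest library for Tbx2 as for Tbx4, and A-LMSC overlapped both later stages. Its largest difference was -0.49, for M-LMSC against PM-LMSC (SE 0.26, 95% interval -1.11 to 0.14, limma adjusted p = 0.655), and without M-LMSC replicate 1 this came to -0.09. Tbx3, a close relative with an overlapping role, was at 0.951 and 0.762 FPKM in A-LMSC, 0.956 and 0.586 in PM-LMSC, and 0.824 and 0.717 in M-LMSC. The stages of Tbx3 overlapped, and it lay below the level of 1 FPKM needed for a test. An antisense gene, Tbx3os1, overlaps 115 of its exonic bases and was at a mean of 0.0124 FPKM. Of the 13 other T-box genes listed, Tbx18 was the highest, at 4.10 to 6.64 FPKM, in the range of Tbx2 and Tbx5.

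Tcf21, a basic helix-loop-helix factor of lipofibroblasts, was lowest in PM-LMSC. It was at 4.16 and 5.98 FPKM in A-LMSC, 2.77 and 3.71 in PM-LMSC, and 3.90 and 6.70 in M-LMSC. Replicate 2 was above replicate 1 at each stage, and both PM-LMSC libraries were below the other 4. The difference of PM-LMSC from A-LMSC was -0.51 (SE 0.26, 95% interval -1.13 to 0.10), with a limma adjusted p of 0.824 and of 0.140 with the replicate block; the block lowered the SE to 0.12. M-LMSC against PM-LMSC gave 0.55, with adjusted p-values of 0.608 and, with the block, 0.120. Meox2, a homeobox factor of mesoderm and of vascular cells, was at 1.32 and 1.26 FPKM in A-LMSC, 0.946 and 1.04 in PM-LMSC, and 0.871 and 1.405 in M-LMSC. Like Tcf21, Meox2 was lower in both PM-LMSC libraries than in both A-LMSC libraries, by -0.20 (SE 0.14, 95% interval -0.55 to 0.15, limma adjusted p = 0.859), and the M-LMSC libraries lay at either end of its range. An estimated 33 to 65 fragments stand behind each Meox2 value.

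None of the 8 genes tested changed between stages at a limma adjusted p under 0.05, in any of the 3 pairwise comparisons, in both later stages against A-LMSC, or in the moderated F test of any difference. Over all 10279 genes tested, 0.0389% were called in PM-LMSC against A-LMSC, 0.0681% in M-LMSC against A-LMSC, 0.0292% in M-LMSC against PM-LMSC, 0.126% in both later stages against A-LMSC and 0.0876% in the F test, so a count of 0 of 8 says little by itself. With the replicate block these shares were 0.292%, 3.92%, 0.418%, 2.05% and 2.53%, and again 0 of the 8 genes were called. At an unadjusted p under 0.05, 2 of the 8 (Gata6 and Tbx4) passed in M-LMSC against A-LMSC, where 14.6% of all genes did, the same 2 in both later stages against A-LMSC (11.2% of all genes) and in the F test (11.4%), and 0 in the other comparisons (6.53% in PM-LMSC against A-LMSC and 8.94% in M-LMSC against PM-LMSC). With the replicate block, Tcf21 also passed in PM-LMSC against A-LMSC (13.8% of all genes), Tbx2, Tbx4 and Tcf21 in M-LMSC against PM-LMSC (16%), Tbx4 and Gata6 in M-LMSC (24.3%) and in both later stages (20.8%) against A-LMSC, and Tcf21, Tbx4 and Gata6 in the F test (21.7%). The comparisons with A-LMSC share its 2 libraries and are not independent.

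Counts of genes whose libraries did not overlap were read against the same background. In PM-LMSC against A-LMSC this held for 6 of 8, Gata6 higher and Tbx4, Tbx5, Foxf1, Tcf21 and Meox2 lower, and for 39.3% of all genes (19.6% higher and 19.7% lower). M-LMSC against A-LMSC gave 3 of 8, Gata6 higher and Tbx4 and Tbx5 lower, against 51.5% of all genes (27.1% higher and 24.4% lower). In M-LMSC against PM-LMSC it was 4 of 8, Tcf21 and Gata6 higher and Tbx2 and Tbx4 lower, against 34.5% (17.8% and 16.7%). For both later stages against A-LMSC it was again Gata6 higher and Tbx4 and Tbx5 lower, 3 of 8, with a background of 21.4% (10.7% in each direction). The median difference of the 8 genes was -0.15 in PM-LMSC against A-LMSC, -0.10 in M-LMSC against A-LMSC and 0.07 in M-LMSC against PM-LMSC, where the medians of all genes tested were 0.01, 0.03 and 0.00. The range of the 3 stage means had a median of 0.50 over the 8 genes and 0.22 over all genes, while the SD within stages had medians of 0.16 and 0.14. Tbx2, Tbx4, Tcf21, Gata6 and Twist1 made up the wide end, with ranges of 0.49 to 0.55, and Tbx5, Foxf1 and Meox2 the narrow end, at 0.11 to 0.20. Of the wide end, Tbx2, Tcf21 and Twist1 also varied widely within stages. Their SDs were 0.35, 0.35 and 0.40, above those of 94.2% or more of genes tested. The SDs of Tbx4 (0.14) and Gata6 (0.17) were nearer the median of all genes.

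**Figure D2:**
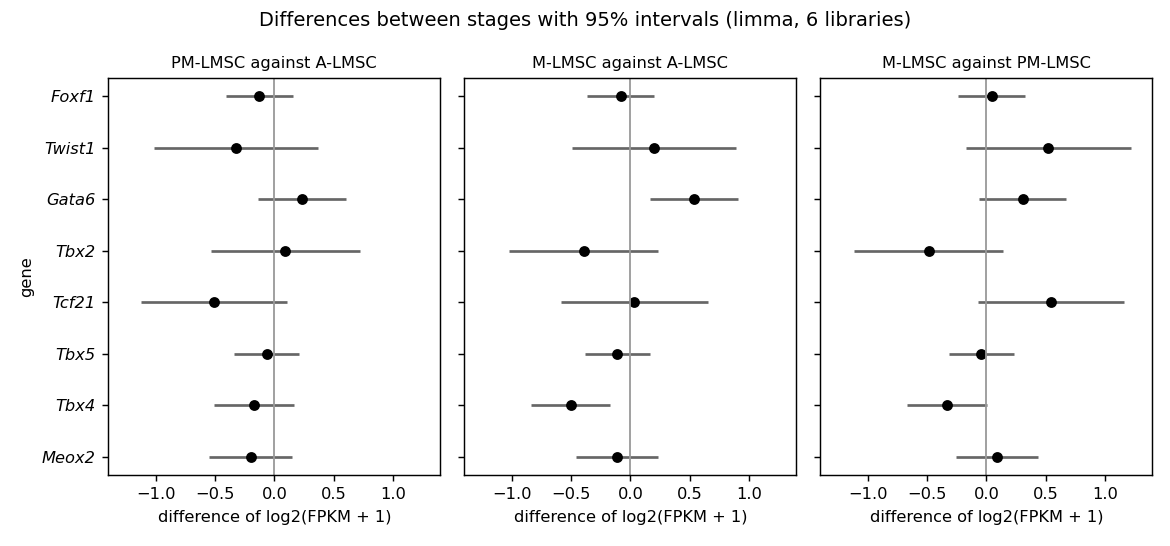
Difference of mean log2(FPKM + 1) between stages (points) with 95% intervals (lines) from limma on all 6 libraries, for the 8 genes with a mean of 1 FPKM or more. Intervals of Gata6 (0.17 to 0.91) and Tbx4 (-0.84 to -0.17) leave out 0 in M-LMSC against A-LMSC, before adjustment over all genes, and all others in the 3 panels include it.

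Gli1, the transcriptional activator that the Hedgehog pathway switches on in the cells that receive it, was the exception among the 10 genes. Its levels were 0.0393 and 0.0312 FPKM in A-LMSC, 0.0369 and 0.0687 in PM-LMSC, and 0.0495 and 0.0987 in M-LMSC. These values stand for an estimated 3 to 8 fragments a library. Both M-LMSC libraries were above both A-LMSC libraries, and PM-LMSC overlapped both other stages. The same held for 27.1% of genes tested, but these average 1 FPKM or more and leave out Gli1, so the share is no background for it. Gli1 lay below the level of 1 FPKM needed for a test, so its differences between stages were not tested. Of its exonic bases, 62 are shared with Arhgap9 and 265 with the antisense gene Gm47200 on the other strand, where reads counted without strand cannot be told apart. Whether the counting used strand is not given in the sources used here. Mean Tbx3, the next gene up in the order, was 14.8 times mean Gli1.

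The other Hedgehog genes were taken from a list of 18 and are given by their place in the pathway. The 3 ligands were low. Shh was listed at 0 in all 6 libraries, Ihh was at 0 to 0.0471 FPKM, and Dhh at 0 to 0.307 FPKM. The receiving parts were present. Smo, the signal transducer, was at 20.6 to 25.0 FPKM, the co-receptors Gas1 at 10.9 to 45.7 and Boc at 2.97 to 6.80, and Sufu, which holds GLI proteins back, at 3.59 to 4.30. Gli3, mostly a repressor, was at 1.91 to 2.94 FPKM and Gli2, the main activator upstream of Gli1, at 0.912 to 1.23, which made them 23.2 to 72.5 times and 9.42 to 29.3 times Gli1 in the same library. Of the targets on this list, Ptch1 was at 0.717 to 1.09 FPKM and Hhip at 0.0396 to 0.0780, whereas Foxf1, also a known target, was at 16.9 FPKM or more in each library. Of 10 Hedgehog genes tested, 0 were called in any comparison, with medians of 0.06, 0.09 and 0.03 in the 3 pairwise comparisons. With the replicate block Boc passed in M-LMSC against A-LMSC, as did 3.92% of all genes. It rose by 0.72 (SE 0.13, limma adjusted p = 0.0356, and 0.156 without the block). Boc was at 2.97 and 3.12 FPKM in A-LMSC, 3.93 and 4.67 in PM-LMSC, and 4.64 and 6.80 in M-LMSC.

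**Figure D3:**
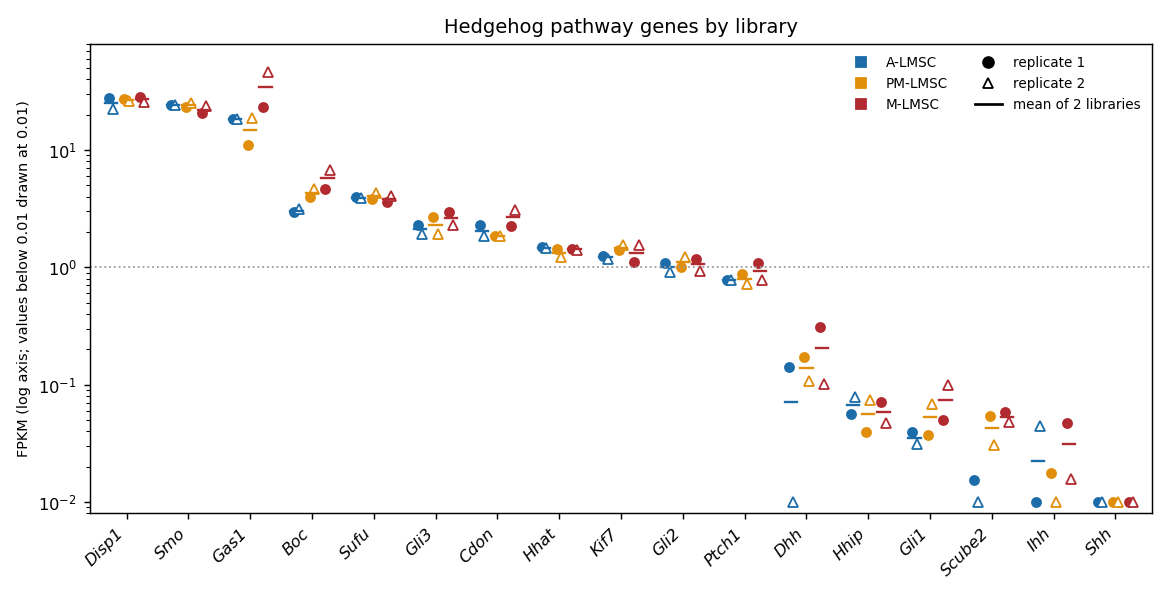
FPKM (log axis; values under 0.01 are drawn at 0.01) of Hedgehog pathway genes in each library, ordered by mean, with symbols for replicates and bars for the mean of the 2 libraries of a stage. Smo, Disp1 and Gas1 lie above 10 FPKM, whereas the targets Hhip and Gli1 lie below 0.1 FPKM and the ligand Shh at 0.

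A list of 18 genes of signalling between lung mesenchyme and epithelium was read beside the factors. It also holds genes that are not signals themselves, such as Spry2, Etv4 and Etv5. Fgf10, the target of Tbx4 and Tbx5 in the lung bud, was at 8.20 and 7.54 FPKM in A-LMSC, 10.8 and 8.35 in PM-LMSC, and 13.8 and 6.73 in M-LMSC, with overlap of M-LMSC with both other stages. Of the 18 genes on the list, 15 were above 0.1 FPKM in all 6 libraries (37.7% of all names) and 11 at 1 FPKM or more (27.5%). Among the 11 were Bmp4 (8.67 to 13.8 FPKM), Fgf7 (6.86 to 11.2) and the BMP antagonist Grem1 (52.2 to 147). None of the 13 tested was called in any comparison, and their median differences were 0.11 in PM-LMSC and 0.27 in M-LMSC against A-LMSC. With the replicate block, 2 were, where 0.292% of all genes passed in PM-LMSC and 3.92% in M-LMSC against A-LMSC. Wnt2, a signal that helps to specify the lung, was at 1.45 and 1.14 FPKM in A-LMSC, 3.66 and 3.43 in PM-LMSC, and 2.01 and 2.54 in M-LMSC. It rose by 0.99 in PM-LMSC against A-LMSC with the block (limma adjusted p = 0.0496, and 0.215 without it). Fgf18, a signal of distal lung mesenchyme, was at 9.17 and 9.34 FPKM in A-LMSC and between 14.2 and 18.8 FPKM in the 4 later libraries. It rose by 0.86 in M-LMSC against A-LMSC with the block (limma adjusted p = 0.0224, and 0.0875 without it).

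To see how far the profile was one of lung, 30 transcription factors best known from mesenchyme of other places (limb, gut, heart, kidney, spleen, face) were read in the same way. The median of their means was 0.184 FPKM, against 4.46 FPKM for the 10 lung genes. Both lists were chosen with earlier results of these data known, so this gap is a description and no test of lung identity. Of the 30, 7 were at 1 FPKM or more in all 6 libraries and 11 were below 0.1 FPKM in all 6. Nkx2-3 (spleen and gut), Nkx2-5 (heart), Tlx1 (spleen), Pax2 (kidney) and Pitx1 (hindlimb) were below 0.1 FPKM in each library. Other genes of single organs were not: Barx1 (stomach) was at 3.497 and 0.204 FPKM in A-LMSC, 1.35 and 1.03 in PM-LMSC, and 2.38 and 2.24 in M-LMSC, with a mean of 1.78 FPKM beside the 1.84 of Tbx4, and Hand2 and Six2 each reached 1.29 FPKM in M-LMSC replicate 2, from 0.477 or less in the other 5 libraries. Osr1 had the highest level of any gene on either list, at 66.4 and 65.7 FPKM in A-LMSC, 48.6 and 48.4 in PM-LMSC, and 49.9 and 38.8 in M-LMSC, and Prrx1 (13.6 to 20.0 FPKM), Prrx2 (10.7 to 19.01), En1 (4.92 to 7.33), Tbx18 (4.10 to 6.64) and Dlx2 (1.28 to 3.60) followed. Several of these, Osr1 and Prrx1 among them, are also known from lung mesenchyme or from fibroblasts at large, so the list is not a list of genes absent from lung. Nor are the 10 lung genes confined to lung, Twist1 and Gata6 among them. Both A-LMSC libraries of Osr1 were above the 4 later ones, and its difference in M-LMSC against A-LMSC was -0.57 (SE 0.14, limma adjusted p = 0.149, and 0.0520 with the block).

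**Figure D4:**
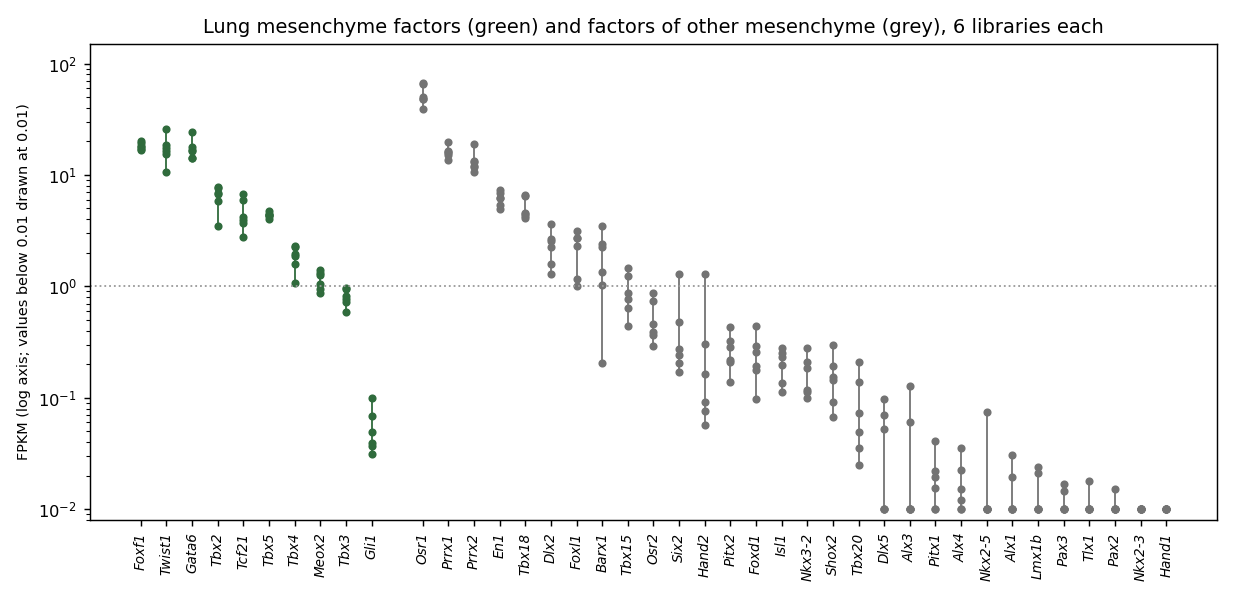
FPKM (log axis; values under 0.01 are drawn at 0.01) of the 10 lung mesenchyme factors (green) and of 30 factors of other mesenchyme (grey); each point is 1 of 6 libraries and lines join the lowest and the highest. Of the green genes 7 of 10 stay at 1 FPKM or more in every library and of the grey genes 7 of 30, with Osr1 the highest on the plot.

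Of the 8 genes tested on that list, 0 were called in any comparison. With the replicate block 1 was, in M-LMSC against A-LMSC, where 3.92% of all genes were. Foxl1, a forkhead factor of gut mesenchyme, was at 2.71 and 2.70 FPKM in A-LMSC, 3.13 and 2.30 in PM-LMSC, and 1.16 and 1.00 in M-LMSC. Both M-LMSC libraries of Foxl1 were below the other 4, and it fell by 0.83 in M-LMSC against A-LMSC with the block (SE 0.12, limma adjusted p = 0.0222, and 0.0973 without it). Among 34 relatives of the 10 genes, 11 were tested and 0 called. With the block Foxl1 passed as above, and Gata5 in both later stages against A-LMSC, where 2.05% of all genes did. Gata5, a factor of heart and gut, was at 0.556 and 0.837 FPKM in A-LMSC, 1.49 and 2.40 in PM-LMSC, and 0.904 and 1.58 in M-LMSC, a rise of 0.59 in both later stages with the block (limma adjusted p = 0.0398, and 0.313 without it). Gata4 was at 1.31 and 1.47 FPKM in A-LMSC and 1.95 to 5.09 FPKM later, a difference of 0.74 in both later stages (SE 0.27, limma adjusted p = 0.395). Gata6, Gata4 and Gata5 were each higher in all 4 later libraries than in both A-LMSC libraries, as were 10.7% of all genes tested. Gata2 (3.30 to 5.98 FPKM) and Gata3 (0.305 to 0.785 FPKM) overlapped between A-LMSC and the later libraries, and Gata1 was at 0.0245 FPKM or less.

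**Figure D5:**
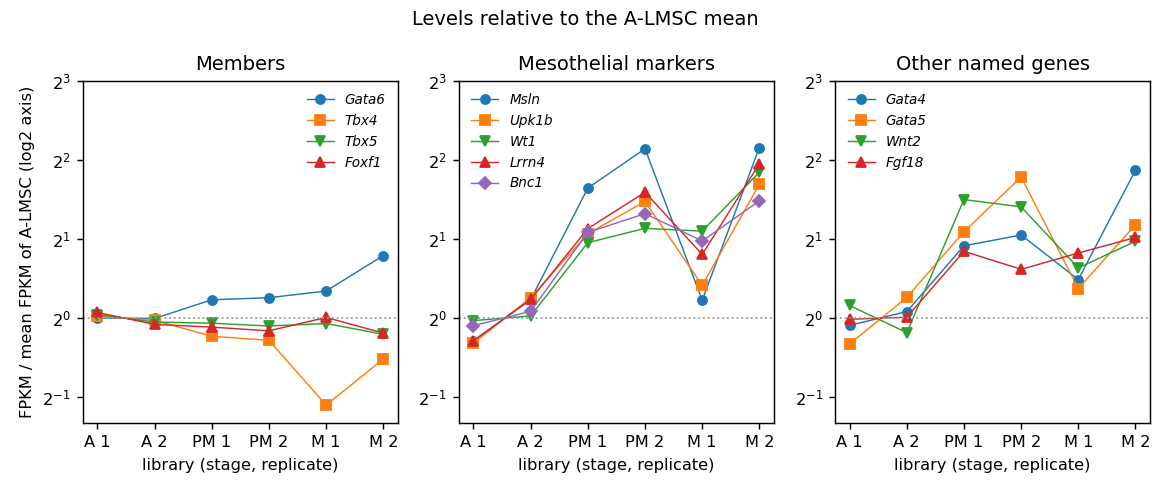
FPKM in each library divided by the A-LMSC mean of the gene (log2 axis; lines only join libraries) for 4 of the 10 genes, 5 mesothelial markers and 4 other genes. Gata6 reaches its highest value, 24.4 FPKM, in M-LMSC replicate 2, where Wt1 is also at its highest (6.31 FPKM), whereas Foxf1 and Tbx5 stay near 1 in every library. Not all mesothelial markers are drawn. Krt19, left out here, fell from 13.8 and 17.3 FPKM in A-LMSC to 4.92 and 4.49 in M-LMSC.

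The labelled cell type was checked against markers. Of 15 general mesenchymal genes, 13 were at 1 FPKM or more in all 6 libraries, with Col1a1 at 761 to 1472 FPKM and Pdgfra at 6.31 to 9.67, and 7 of 10 smooth muscle and pericyte genes were as well, led by Acta2 at 4986 to 6311 FPKM. In M-LMSC against A-LMSC, 0 genes on these 2 lists were called without the replicate block. With it, Lum rose by 1.90 (limma adjusted p = 0.0419) and Dcn by 1.13 (0.0239), and Cspg4 fell by 0.82, where 3.92% of all genes were called. Lung epithelial markers summed to 0.518 to 1.80 FPKM over 12 genes, and Nkx2-1 was listed at 0 in 5 libraries. Endothelial markers summed to 2.27 to 3.38 FPKM over 12 genes, led by Kdr, while Pecam1 was at 0.0134 to 0.0337 FPKM. Kdr was at 1.11 and 1.17 FPKM in A-LMSC, 1.31 and 1.44 in PM-LMSC, and 2.23 and 2.31 in M-LMSC. With the replicate block it passed in M-LMSC against A-LMSC, as did 3.92% of all genes, and rose by 0.61 (limma adjusted p = 0.0285, and 0.0998 without the block). Endothelial and epithelial cells also use Foxf1 and Gata6, and their part in the values of these genes was not tested. Of 12 mammary epithelial genes, 2 (Krt18 and Krt19) were at 1 FPKM or more in all 6 libraries, both of them also on the mesothelial list, and Wap was at 0 throughout. Several epithelial genes were at their highest in M-LMSC, though low: Epcam was at 0 in A-LMSC and PM-LMSC and at 0.326 and 0.473 FPKM in M-LMSC, Cdh1 at 0.0369 or less and then at 0.231 and 0.394, Cldn4 at 0.149 or less and then at 0.533 and 0.597, and Krt14 at 0.269 or less and then at 0.722 and 1.47. Csn3 reached 1.22 FPKM in M-LMSC replicate 2. Not all epithelial genes did so. Krt19 fell from 13.8 and 17.3 FPKM in A-LMSC to 4.92 and 4.49 in M-LMSC (limma adjusted p = 0.0395). Gata3 was lowest in M-LMSC, at 0.430 and 0.305 FPKM. Haematopoietic markers summed to 136 and 127 FPKM in A-LMSC, 171 and 78.8 in PM-LMSC, and 406 and 296 in M-LMSC, most of it Lyz2, with Ptprc (CD45) at 0.0254 to 0.0987 FPKM. CD11b and CD34 are also negative surface markers of the study. Itgam (CD11b) was at 0.0799 and 0.468 FPKM in A-LMSC, 0.488 and 0.0349 in PM-LMSC, and 2.45 and 1.46 in M-LMSC. Cd34 was at 0.283 and 0.465 FPKM in A-LMSC, 0.750 and 0.979 in PM-LMSC, and 0.719 and 2.45 in M-LMSC. Both averaged under 1 FPKM and were not tested. Of 6 haematopoietic genes tested, 0 were called in M-LMSC against A-LMSC (0.0681% of all genes) and 5 rose with the block (3.92% of all genes called). Their sum was highest in M-LMSC, where Tbx4 was lowest and Gata6 highest, and its part in the values of both genes was not tested.

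For the 3 genes with the highest means, the genes with the most similar course over the 6 libraries were sought among 10278 others, by Pearson's r of log2(FPKM + 1), as a description. Zfp521 (r = 0.980) and Fxyd5 (r = 0.970) were closest to Foxf1, Ddx59 (r = 0.976) and AI429214 (r = 0.968) to Twist1, and Srpx (r = 0.991) and Hoxc5 (r = 0.988) to Gata6. Srpx, a secreted sushi-repeat protein, was at 2.04 and 1.92 FPKM in A-LMSC, 2.77 and 2.88 in PM-LMSC, and 3.95 and 7.02 in M-LMSC. These genes were picked for their r, over libraries that also differ in depth, and their likeness was not tested.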

How the data were processed

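RNA-seq values of cultured LMSCs were analysed at 3 stages, with 2 libraries a stage. The authors deposited 1 FPKM value per gene and library for 34745 genes. The submitters' processing notes name TopHat2 2.0.9 and the mouse build mm10, and the counting tool and annotation are not given in the sources used here. Depths estimated from the spacing of low values were 14.8 to 20.8 M (mega-fragments), and they limit genes near or below 1 FPKM. Only 54.7% to 57.1% of low values came within 0.1 of a whole number of fragments, so counts were not recovered and no count model was used. FPKM summed to 258249 to 271408 a library.

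The 10279 genes averaging 1 FPKM or more were tested as log2(FPKM + 1) with limma 3.58.1 in R 4.3.3 (lmFit, then eBayes with a trend), with 1 mean per stage over all 6 libraries and Benjamini-Hochberg adjustment at 0.05. Differences are on that scale, which understates those of low genes. The replicate numbers 1 and 2 recur at each stage in the labels, which say no more of them. Deviations from stage means correlated between libraries of the same number at 0.238, 0.307 and 0.491, so the number was used as a block in an alternative fit. Lungs of different ages cannot come from the same mouse, so the number does not pair animals. As the block was chosen from these same data, its results are no separate support for a difference. The other alternatives were a pseudocount of 0.1, other filters, quantile normalization, median centring, no trend, only the stages compared, and each library left out. Members and lists were chosen with earlier results of these data known. All 10 members were named, with genes among the 6 highest of each list. Other genes were named for their role or after their values were seen. A repeated gene name (57) was read at its first identifier. Of the identifiers, 34267 were in GENCODE M21 (GRCm38), the source of gene coordinates. Copies were searched with blastn 2.17.0, and among the members it found only Gli1 and its overlapping antisense gene. The fits were tested on simulated data for M-LMSC against A-LMSC. Of 100 genes changed by a log2 size of 1, 55 were recovered, and 90 of 100 at a size of 2, with 7 false calls. No smaller size was simulated, and the differences of the members reached 0.55 at most, so the simulation does not cover them. Python 3.11.15 and pandas 2.3.3 were used elsewhere. Values of 1 gene of the Hedgehog list are not reported here.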

Additional observations from a re-analysis of the deposited data

How the results depend on the processing

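Of 440 values of the 8 tested genes under 14 alternative settings, 0 were called at a limma adjusted p under 0.05, and 17 changed direction, in 11 of 32 comparisons. When 1 library was left out, Tbx2 ranged from -0.082 to 0.27 in PM-LMSC against A-LMSC and from -0.35 to 0.045 in both later stages against A-LMSC. In M-LMSC against A-LMSC the ranges were -0.18 to 0.011 for Foxf1, -0.29 to 0.36 for Tcf21, -0.29 to 0.071 for Meox2 and -0.15 to 0.55 for Twist1. In M-LMSC against PM-LMSC they were -0.099 to 0.011 for Tbx5, -0.049 to 0.14 for Foxf1 and -0.091 to 0.27 for Meox2. Twist1 ranged from -0.66 to 0.015 in PM-LMSC against A-LMSC and from -0.24 to 0.11 in both later stages. Tcf21 in M-LMSC against A-LMSC, at 0.035, also turned to -0.0060 with quantile normalization and to -0.014 with median centring. Gata6 and Tbx4 kept their direction in all of their alternatives. With a level of 5 FPKM in place of 1, 3 members stayed at or above it in every library. Leaving out each library in turn, an alternative chosen after seeing the data, gave 7 members at 1 FPKM or more each time. No other count was possible: a left-out library cannot lower it, and each remaining member was below 1 FPKM in more than 1 library.

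The number of all genes called, moved far more. It was 4 for the pre-metastatic and 7 for the metastatic stage against A-LMSC, 3 between these 2 later stages, 13 for both of them against A-LMSC and 9 in the F test, and the values that follow keep this order. The replicate block gave 30, 403, 43, 211 and 260. With no filter on low values, the first 2 and the last 2 were 1, 3, 0 and 2. When each fit held just the 4 libraries it compared, the first 2 were 21 and 1. Both later stages against A-LMSC gave 7 with a filter at 0.1 FPKM, 7 with median centring and 8 with no trend. Leaving out 1 library gave 1 to 28, 1 to 90, 2 to 25, 0 to 93 and 2 to 78, with the highest counts when an M-LMSC library was left out. The cause was not tested. Depth limits Gli1 and Meox2 most, which rest on the fewest fragments.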
